A study of Ovis aries with 115 samples.

Results

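The cervix of Belclare and Suffolk ewes was compared in the follicular phase of natural cycles, that is, in ewes whose cycle was not synchronised with hormones. The comparison held every library labelled Belclare or Suffolk, natural cycle and follicular phase, which were 10 Belclare and 8 Suffolk ewes, 18 of the 115 libraries of the series. A further library titled Suffolk, natural and follicular carried labels for an induced cycle and the luteal phase, and was left out. Both breeds were kept in Ireland, with no allele or treatment assigned to either, and the study regarded Suffolk as of low and Belclare as of medium fertility after cervical insemination with frozen-thawed semen. Each library held polyA RNA from cervix taken post mortem, and the study's methods, which describe the synchronised ewes, give adult, multiparous animals and tissue of the mid-cervix. Ewes are named here by breed and the replicate number of their title. The other libraries came from the same breeds at the follicular and luteal phases of a synchronised cycle, and from 2 Norwegian breeds, Fur and Norwegian White Sheep (NWS). No hormone level or sequencing batch was given for single ewes, so stage within the follicular phase and batch could not be compared with breed.

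The cervix is a barrier between the vagina and the uterus. Its epithelium secretes mucus, built from gel-forming mucins such as MUC5AC and MUC5B, and its wall consists of collagen-rich stroma and smooth muscle. Around oestrus, oestradiol from the growing follicle changes the amount and flow of mucus and softens the stroma, while leukocytes and interferon-induced proteins take part in the defence against microbes. In sheep, deep insemination through the narrow, folded cervical canal is difficult, so semen is usually placed at its entrance, and differences between breeds in pregnancy rate after frozen-thawed semen are well known.

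Total counts ranged from 13850253 to 19621536 read pairs per Belclare ewe and from 13406420 to 20773445 per Suffolk ewe. The means differed with p = 0.517 in a two-sided exact permutation test over 43758 divisions of the ewes. Levels are given in CPM, read counts scaled to a common library size after normalization, and 3 counts in a library correspond to 0.19 CPM in Suffolk and 0.18 CPM in Belclare on average. Among the genes given with values, CACNG6 had 3 or fewer counts in 6 ewes, and CD177, CLGN, MYCN, OXTR and PRSS16 in 1 ewe each. Markers of the tissue were present in both breeds. The summed level of 4 smooth muscle markers, led by DES and ACTG2, ranged from 72.0 to 6578 CPM in Belclare and from 68.1 to 6020 CPM in Suffolk, so ewes of 1 breed differed far more than the breeds. The 9 markers of secretory epithelium summed to 2779 to 8013 CPM in Belclare and 1680 to 8177 CPM in Suffolk. The summed lymphoid markers were at 28.7 to 47.6 CPM and 22.8 to 45.7 CPM in Belclare and Suffolk, and those of fibroblasts at 976 to 2381 and 875 to 2362 CPM. The 4 markers of stratified epithelium summed to 77.4 to 367.5 CPM in Belclare and 11.9 to 112.2 CPM in Suffolk, those of neutrophils and myeloid cells to 89.8 to 327.0 and 99.2 to 276.8 CPM, and those of endothelium to 656 to 1321 and 485 to 1379 CPM. No marker was at 0 in all 18 ewes, and none of those tested between breeds passed. ACTC1, POPDC2, DSC1 and the CXCR2 identifier ENSOARG00000019477 were too low to be tested. In such bulk tissue, fewer cells of a type and less RNA per cell cannot be told apart. Suffolk ewe 4 stood apart from the other libraries: its median correlation with the other ewes of its breed, over genes, was 0.858. Next were Suffolk ewe 9 at 0.898, Belclare ewe 1 at 0.904 and Suffolk ewe 6 at 0.906. The Belclare ewes other than ewe 1 were at 0.939 to 0.966.

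The first question was which genes differed between the breeds. In the main test, that of edgeR, no gene passed the study's thresholds for differentially expressed genes (DEGs). These were an adjusted p under 0.05 and a fold change above 1.5. Of 14307 genes with at least 1 CPM in at least 8 of the 18 ewes, 0 (0%) were DEGs in edgeR's quasi-likelihood test with Benjamini-Hochberg adjustment, and the smallest adjusted p was 0.451. At an unadjusted p under 0.05 there were 1389 genes (9.71%), of which 557 (3.89%) had higher-expression and 832 (5.82%) lower-expression in Belclare. DESeq2 called more: 18 genes had an adjusted p under 0.05 in its Wald test (0.126% of genes), 13 of them with a fold change above 1.5. Its likelihood ratio test, the one the study used, gave 14 DEGs. Over genes, the standard error (SE) of the log2 fold change, Belclare minus Suffolk, had a median of 0.17. Because no gene passed the main test, the values that follow describe these 18 ewes, and a gene named as higher or lower is so named for its levels in them.

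Among named genes, those with the smallest p and higher levels in Belclare included regulators of transcription, a proton pump and a mitochondrial carrier. PLEKHF1 (ENSOARG00000004052), a protein of endosomes and lysosomes, was at 8.35, 10.1 and 14.01 CPM in Belclare (lowest, median and highest ewe) and at 4.48, 7.002 and 8.29 CPM in Suffolk. All 10 Belclare ewes were above all 8 Suffolk ewes, which occurred for 1 gene in this direction (0.00699% of genes) and for 1 unnamed gene, ENSOARG00000011939, in the other (0.00699%), together 0.014%. Its log2 fold change was 0.61 ± 0.14 (SE, adjusted p = 0.451 in edgeR). ATXN1 (ENSOARG00000012141), which encodes ataxin 1, a corepressor of transcription, ranged from 16.4 to 26.9 CPM in Belclare (median 20.2) and from 11.7 to 18.2 CPM in Suffolk (median 13.9), with 8 of 10 Belclare ewes above every Suffolk ewe. Its log2 fold change was 0.55 ± 0.12 (SE, adjusted p = 0.451). TLDC1 (ENSOARG00000010901) was at 14.9 to 30.6 CPM (median 22.9) in Belclare and 11.2 to 19.8 CPM (median 13.3) in Suffolk, again with 8 Belclare ewes above all Suffolk ewes. The log2 fold change was 0.73 ± 0.16 (SE, adjusted p = 0.451). By DESeq2's Wald test the adjusted p of ATXN1 and TLDC1 was 0.0165 and that of PLEKHF1 0.0188, and ATXN1 stayed below the fold change of 1.5.

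The other named genes of this kind overlapped more. CASZ1, a zinc finger transcription factor, had medians of 90.4 and 63.8 CPM in Belclare and Suffolk, and a log2 fold change of 0.49 ± 0.13 (SE). ITPRIPL2 had medians of 24.04 and 18.01 CPM and a log2 fold change of 0.48, and 8 Belclare ewes lay above all Suffolk ewes. SPTB, the beta spectrin of the red cell membrane skeleton, had medians of 13.05 and 6.63 CPM with a log2 fold change of 1.003 ± 0.30 (SE). Also in this group were KCNJ2, an inwardly rectifying potassium channel (medians 4.17 and 2.34 CPM), and MYLK3, a myosin light chain kinase best known from heart muscle (21.2 and 11.1 CPM). UCP2, a carrier of the inner mitochondrial membrane, had medians of 146.8 and 81.2 CPM, and its highest Belclare ewe, ewe 1, was at 534.7 CPM. ATP12A, the non-gastric proton pump, which acidifies fluid at epithelial surfaces, had the largest fold change of these genes, 3.81 ± 1.10 in log2 units (SE, adjusted p = 0.451). Its level was 0.37 to 237.7 CPM in Belclare (median 4.72) and 0.28 to 7.38 CPM in Suffolk (median 1.58). The highest value again belonged to Belclare ewe 1, the next was 23.4 CPM, and without that ewe the log2 fold change was 1.80. The adjusted p of all these genes was 0.451.

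**Figure D1:**
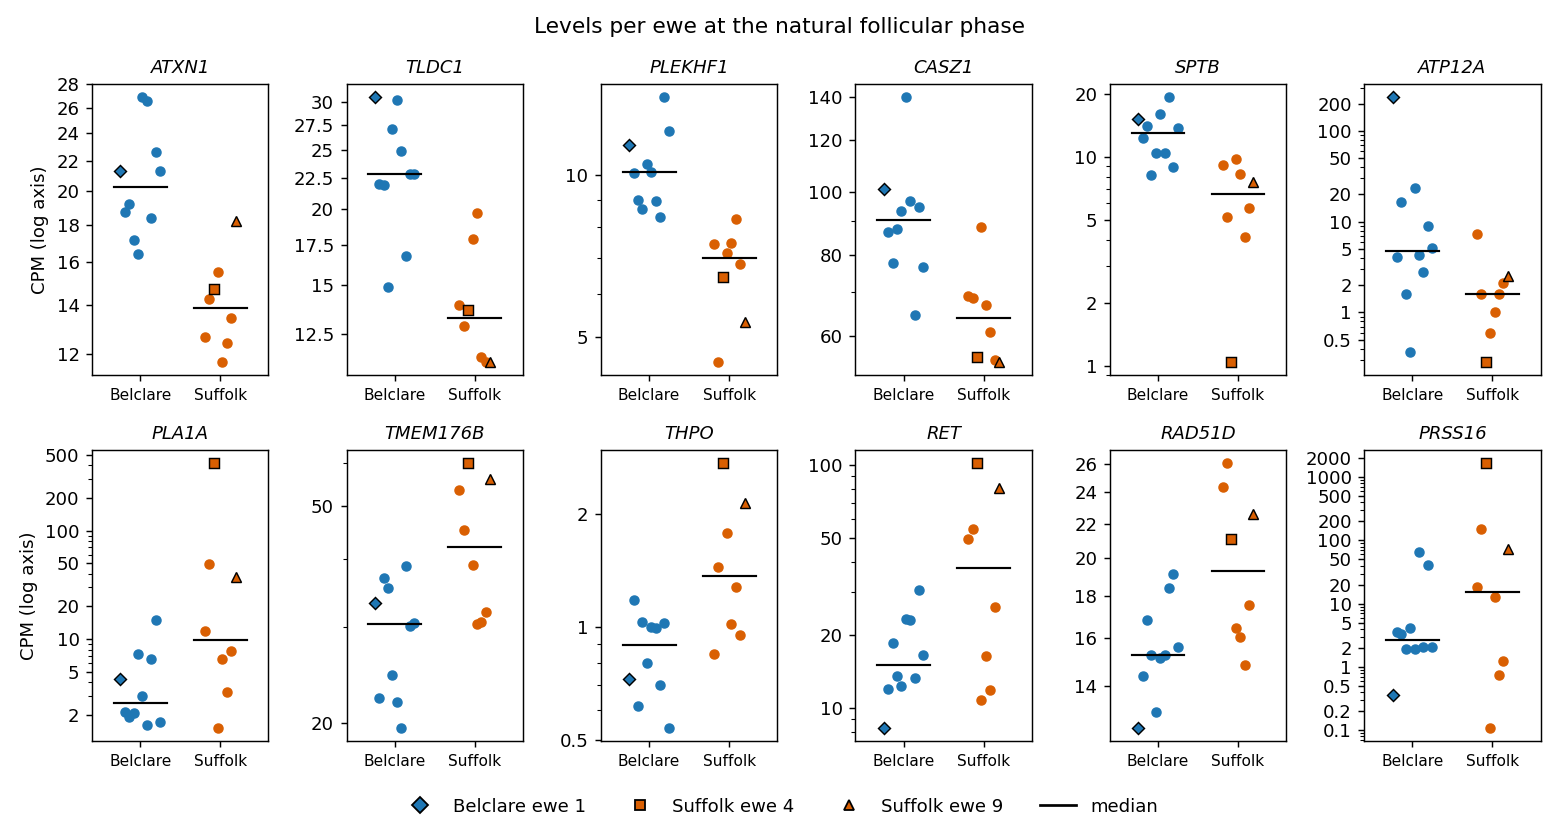
CPM per ewe on log axes for 12 of the named genes with the smallest p, with 6 higher in Belclare in the upper row and 6 lower in Belclare in the lower row. Each point is 1 ewe, lines are medians, and Belclare ewe 1 and Suffolk ewes 4 and 9 have their own symbols. Only for PLEKHF1 do the 10 Belclare and 8 Suffolk ewes not overlap, and the highest values of PLA1A and PRSS16, 420.9 and 1685 CPM, both belong to Suffolk ewe 4.

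Genes with lower levels in Belclare fell, with no sharp border, into a set with small, even differences and another in which a few Suffolk ewes were very high. To the first belonged RAD51D, a protein of DNA repair by homologous recombination, with 12.5 to 19.1 CPM in Belclare (median 15.3) and 14.8 to 26.1 CPM in Suffolk (median 19.3). Its log2 fold change was -0.37 ± 0.12 (SE, adjusted p = 0.453). THPO, which encodes thrombopoietin, the hormone of platelet formation, was low in both breeds, at 0.54 to 1.18 CPM in Belclare (median 0.90) and 0.85 to 2.74 CPM in Suffolk (median 1.36), with a log2 fold change of -0.84 ± 0.24 (SE, adjusted p = 0.451). For THPO and for the membrane protein TMEM176B, 5 Suffolk ewes lay above every Belclare ewe, and the medians of TMEM176B were 30.3 and 42.1 CPM in Belclare and Suffolk. AKR1E2, an aldo-keto reductase, had medians of 33.4 and 46.8 CPM and a log2 fold change of -0.54 ± 0.18 (SE, adjusted p = 0.453). RET, the receptor tyrosine kinase for ligands of the GDNF family, was spread more widely, from 8.29 to 30.7 CPM in Belclare (median 15.1) and from 10.8 to 102.0 CPM in Suffolk (median 37.7). Its log2 fold change was -1.35 ± 0.39 (SE, adjusted p = 0.451). Suffolk ewe 4 was the highest ewe for THPO, TMEM176B and RET, and without it their log2 fold changes were -0.67, -0.50 and -1.06.

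Among these named genes of smallest p, those with the widest fold changes were highest in Suffolk ewe 4. Without that ewe their differences were smaller and kept their direction. PLA1A (ENSOARG00000019774), a phospholipase that cleaves phosphatidylserine, was at 1.61 to 15.1 CPM in Belclare (median 2.56) and at 1.51 to 420.9 CPM in Suffolk (median 9.87). Suffolk ewe 4 had the highest level, the next Suffolk ewe 49.7 CPM, and 3 Suffolk ewes were above all Belclare ewes while 1 was below them all. The log2 fold change of -3.88 ± 0.92 (SE, adjusted p = 0.451 in edgeR and 0.0165 in DESeq2's Wald test) became -1.90 without Suffolk ewe 4. PRSS16, a serine protease known from the thymus, ranged from 0.11 to 1685 CPM in Suffolk and from 0.36 to 64.9 CPM in Belclare, and its log2 fold change moved from -4.28 to -1.58 without the same ewe. That ewe was also the highest for CECR2, a bromodomain protein, at 83.3 CPM, for the transcription factor MYCN at 18.4 CPM, and for GRAMD1B, a cholesterol carrier between membranes, at 212.4 CPM. Their log2 fold changes were -1.95, -1.90 and -1.43 with all ewes, and -0.72, -1.04 and -0.80 without Suffolk ewe 4.

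Whether breed accounted for a share of the variance over all genes was asked next. The first principal component of log2 CPM held 26.6% of the variance and the second 18.2%. Suffolk ewes 2, 3, 4 and 9 lay at 1 end of the first component, beyond all Belclare ewes, while Suffolk ewes 5, 6, 7 and 8 lay among the Belclare ewes. Breed held 8.35% of the variance over all genes tested, where the median over all 43758 divisions of the 18 ewes was 5.51%, and the difference did not pass a one-sided exact permutation test (p = 0.113). Without Suffolk ewe 5, which lay near Belclare ewe 1, the share was 11.1% (p = 0.031, one-sided exact permutation test), and without Suffolk ewe 4 it was 6.81% (p = 0.323).

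**Figure D2:**
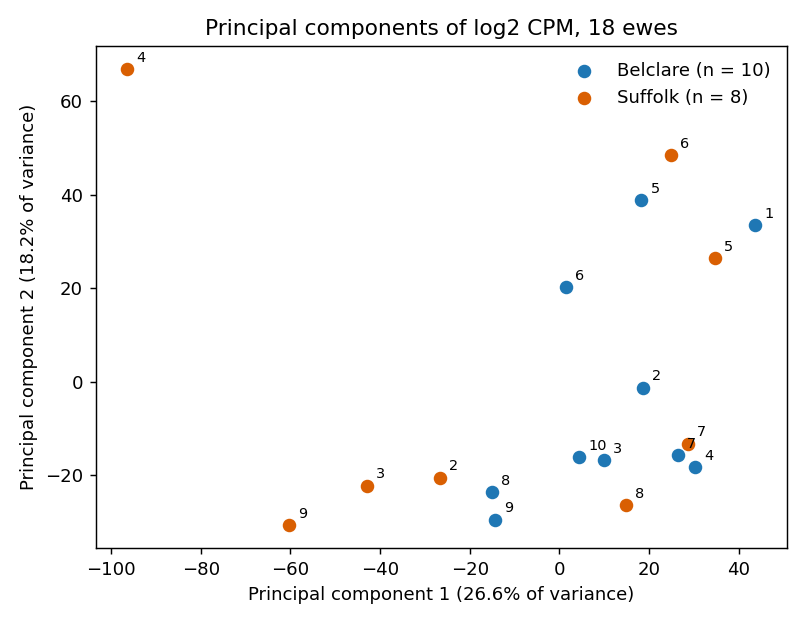
First and second principal components of log2 CPM over the 14307 genes tested, with 1 point per ewe and its replicate number. Belclare and Suffolk ewes overlap, and Suffolk ewes 4 and 9 have the lowest values on the first component, which holds 26.6% of the variance.

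The second question was whether genes of known cervical functions differed together. Lists for 13 functions or cell types were described by the number of members at an unadjusted p under 0.05 and by the median log2 fold change, beside -0.02 for all genes tested and 0.07 for the 1315 tested genes with a name. Of those 1315, 763 had a log2 fold change above 0, and 87 were higher and 67 lower in Belclare at an unadjusted p under 0.05. Only list members with a name could be tested, and names came from the study's lists of DEGs in synchronised ewes. The 1315 are therefore the nearer background for the lists. No member of any list was a DEG, and in none of them was a member free of overlap between the breeds.

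Genes induced by interferons, proteins that hinder viral replication, made up the list with the most members at an unadjusted p under 0.05. Of 27 identifiers tested, among them more than 1 of IFITM3, 8 were at that level, all higher in Belclare. Of the 1315 genes with a name 87 were, and of all genes 3.89%. A log2 fold change above 0 was found for 22 of the 27, with a median of 0.19, and for 763 of the 1315, with a median of 0.07. ISG15, a ubiquitin-like modifier, was at 2.11 to 66.3 CPM in Belclare (median 3.85) and at 1.25 to 4.802 CPM in Suffolk (median 2.91), with a log2 fold change of 1.77 ± 0.66 (SE, adjusted p = 0.453). OAS1, an oligoadenylate synthetase activated by double-stranded RNA, had medians of 9.69 and 5.56 CPM and a log2 fold change of 1.03 ± 0.37 (SE). The medians of the nucleic acid sensor ZBP1 were 12.7 and 5.67 CPM, and those of the ubiquitin ligase RNF213 were 167.5 and 143.1 CPM. Belclare ewe 1 was the highest of all 18 ewes for each of these 4 genes. Averaged over the list, its log2 level was 1.03 above the mean of the 18 ewes, the next highest ewe, Belclare 6, was 0.42 above, and the lowest, Suffolk 6, stood at -0.55. Without Belclare ewe 1, 2 of the 27 identifiers were at an unadjusted p under 0.05, the median was 0.14, and the log2 fold changes of ISG15 and ZBP1 were 0.49 and 0.61. Without Suffolk ewes 4 and 9, 3 were at that level. Further members at that level included OAS2 and DHX58, which sense viral RNA, and RTP4, with log2 fold changes of 0.84, 0.57 and 0.60.

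Mucus and epithelial genes lay slightly higher in Belclare. Of 19 genes of mucus and secretory epithelium, 16 had a log2 fold change above 0 (median 0.21), where 763 of the 1315 genes with a name did (median 0.07). An unadjusted p under 0.05 was found for 2, where 87 of the 1315 and 3.89% of all genes were at that level in this direction. The 2 became 0 without Suffolk ewe 4, 6 or 8, and 1 without Belclare ewe 1, 6 or 9 or Suffolk ewe 7. MUC5AC, a gel-forming mucin, was at 3.03 to 80.8 CPM in Belclare (median 12.6) and 1.53 to 16.6 CPM in Suffolk (median 8.25), with a log2 fold change of 1.38 ± 0.60 (SE, adjusted p = 0.478). Of the Belclare ewes, 3 were above every Suffolk ewe, and without Belclare ewe 1, the highest, the log2 fold change was 0.88. SCNN1B, a subunit of the epithelial sodium channel, had medians of 41.65 and 23.97 CPM (log2 fold change 0.75, standard error 0.31). SCGB2A1, a secretoglobin, and TSPAN1, a tetraspanin of epithelia, had medians of 14.2 and 8.97 CPM and of 1092 and 919 CPM. MUC5B, the main gel-forming mucin of the cervix, had medians of 153.9 and 92.1 CPM, and in Suffolk ewe 4 it was at 0.28 CPM. Averaged over the list, Suffolk ewe 4 stood at -1.97 relative to the mean of the 18 ewes on the log2 scale, lower than all others. Of 23 genes of epithelial junctions and keratins, 18 had a log2 fold change above 0 (median 0.23), against the same 763 of 1315. An unadjusted p under 0.05 was found for 2, where 87 of the 1315 were higher at that level. They were CLDN12, a tight junction claudin, with medians of 13.95 and 11.5 CPM, and KRT16, a keratin of stratified epithelium, with 33.9 and 23.9 CPM. The number of these genes at that level, higher in Belclare, ran from 1 (without Belclare ewe 1 or Suffolk ewe 3, 4, 7, 8 or 9) to 6 (without Suffolk ewe 5), where 3.89% of all genes were. KRT16 reached 251.0 CPM in Belclare ewe 1 and was lowest, at 2.64 CPM, in Suffolk ewe 4, and its log2 fold change of 1.14 was 0.43 without Belclare ewe 1. CLDN10 went the other way, with medians of 65.5 and 174.4 CPM, and EVPLL had medians of 1.29 and 0.93 CPM.

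In the lists of stromal and muscle genes, most tested members had a log2 fold change below 0. The list of the extracellular matrix and its remodelling held 34 identifiers of 32 genes, with THBS2 under more than 1. Of the 34, 26 had a log2 fold change below 0 (median -0.32), where 7688 of all 14307 genes and 552 of the 1315 with a name did. At an unadjusted p under 0.05 there were 2, both lower in Belclare, where 5.82% of all genes were at that level in this direction. That number ran from 0 in edgeR (without Suffolk ewe 4) to 8 (without Suffolk ewe 7). The 2 were COL4A4, a chain of basement membrane collagen, with medians of 5.38 and 11.2 CPM, and LOXL2, an enzyme that cross-links collagen, with 120.0 and 183.9 CPM. FBN2, a fibrillin of elastic fibres, had medians of 53.0 and 105.8 CPM, and P4HA3, a subunit of collagen prolyl hydroxylase, 7.10 and 11.1 CPM. Without Suffolk ewe 4 the log2 fold changes of COL4A4 and LOXL2 moved from -1.11 to -0.72 and from -0.70 to -0.40, and without Suffolk ewes 4 and 9 the median of the list was -0.01. Those ewes had the highest mean levels of the list among the 18, 0.59 and 0.89 above the mean on the log2 scale. Of 23 genes listed for smooth muscle and contraction, 16 had an identifier with a name and 12 were tested. Left out for want of a name were MYH11, ACTA2, MYLK, MYL9, TPM1, TAGLN and CNN1, and ACTC1 and POPDC2 were among those too low. The list therefore says little on the contractile genes. Of the 12, 9 had a log2 fold change below 0 (median -0.34), where 7688 of all 14307 genes did. HAND2 and FOXF1, transcription factors of mesenchyme and smooth muscle, had an unadjusted p under 0.05. The number at that level was 1 without Suffolk ewe 4 or Suffolk ewe 9, 0 in edgeR without both, and at most 4 (without Suffolk ewe 7). HAND2 was at 3.33 to 13.5 CPM in Belclare (median 9.79) and 7.07 to 35.9 CPM in Suffolk (median 15.1), a log2 fold change of -0.80 ± 0.27 (SE, adjusted p = 0.453). FOXF1 had a log2 fold change of -0.55, and TLN2, a talin that links integrins to actin, had medians of 46.5 and 52.7 CPM. The contractile genes DES and ACTG2 had log2 fold changes of -0.40 and 0.19. Their medians went the other way, at 293.3 and 197.2 CPM for DES and 220.1 and 252.3 CPM for ACTG2 in Belclare and Suffolk. Of 7 fibroblast genes, 6 were below 0 (median -0.24), where 7688 of all 14307 genes were, and 0 had an unadjusted p under 0.05 in edgeR. FAP, a surface protease, was at medians of 184.2 and 220.4 CPM, TWIST2 at 12.8 and 14.04 CPM, PODNL1 at 14.3 and 12.2 CPM, and PI16 at 2.03 and 2.29 CPM. Of 8 endothelial genes, 7 were below 0 (median -0.23), where 7688 of all 14307 genes and 552 of the 1315 with a name were. SOX17, a transcription factor of arterial endothelium, had an unadjusted p under 0.05 with medians of 43.1 and 49.03 CPM. At that level and lower in Belclare were 5.82% of all genes and 67 of the 1315. The other 3 endothelial genes of smallest p were ANGPT2, CLEC1A and VWF, of which VWF had the higher median in Belclare, 850.5 against 666.8 CPM.

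Hormone-responsive genes varied widely within each breed. Of 20 genes of the steroid response and of prostaglandins, 3 had an unadjusted p under 0.05, all lower in Belclare, where 5.82% of all genes were, while the median log2 fold change of the list was 0.07. Without Suffolk ewe 4, 1 was at that level, without Suffolk ewes 4 and 9, 0 in edgeR, and without Belclare ewe 9 or Suffolk ewe 8, 5. PAPPA, a protease that frees insulin-like growth factors from their binding proteins, was at 0.76 to 4.61 CPM in Belclare (median 2.12) and 0.53 to 26.4 CPM in Suffolk (median 3.98). IGFBP2, such a binding protein, had medians of 68.4 and 152.7 CPM and a log2 fold change of -1.51 ± 0.55 (SE, adjusted p = 0.453). MSX1, a homeobox factor of the reproductive tract, had medians of 47.3 and 53.1 CPM, reached 284.0 CPM in Suffolk ewe 4, and had a log2 fold change of -0.81 that became -0.23 without that ewe. OXTR, the oxytocin receptor, ranged from 0.12 to 78.3 CPM in Belclare (median 6.62) and from 0.43 to 208.4 CPM in Suffolk (median 26.2), and its log2 fold change of -2.14 had a standard error of 1.09. No hormone level or hour of oestrus was given for these ewes, so the part of stage within the phase was not tested.

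Leukocyte, glycosylation, lysosomal and mitochondrial genes had list medians between -0.17 and 0.07 on the log2 scale. Of 24 lymphoid identifiers, with IGHG3 under more than 1, 16 were below 0 (median -0.11), where 7688 of all 14307 genes were. At an unadjusted p under 0.05 there were 2, the phosphatase PTPN22 of T cell signalling (medians 1.25 and 1.94 CPM) and CTSW, a cathepsin of cytotoxic lymphocytes (18.3 and 28.3 CPM). All genes at that level and lower in Belclare were 5.82%, and the 2 became 1 without Belclare ewe 4, Suffolk ewe 4 or Suffolk ewe 9 and 0 in edgeR without both of these Suffolk ewes. Their other members of smallest p, SASH3 and IKZF3, had log2 fold changes of -0.52 and 0.41. Of 20 neutrophil and myeloid genes, 1 was at an unadjusted p under 0.05, higher in Belclare, where 3.89% of all genes and 87 of the 1315 with a name were. It was CD177, a surface protein of neutrophils, at 3.63 to 188.0 CPM in Belclare (median 6.54) and 0.05 to 12.2 CPM in Suffolk (median 2.20). Its log2 fold change of 2.84 ± 0.96 (SE, adjusted p = 0.453) was 1.05 without Belclare ewe 1. ITGB2, CD80 and HVCN1 of that list had log2 fold changes of 0.44, 0.40 and -0.35. Of 23 genes of glycosylation and sperm binding, the fucosyltransferase FUT4 and the mucin-type glycosyltransferase GALNT15 had lower levels in Belclare at an unadjusted p under 0.05 (log2 fold changes -0.44 and -0.79). ADAM7 had higher levels at that p, and POFUT2 had a log2 fold change of 0.28. Among all genes, 5.82% were lower and 3.89% higher in Belclare at that level. Of 24 lysosomal genes, 1 was at that level, IDS, iduronate sulfatase (log2 fold change 0.36), where 3.89% of all genes were higher in Belclare. FUCA2, PLBD2 and NEU1 had log2 fold changes of 0.28, -0.46 and -0.23. Of 2 mitochondrial genes, COX-1 had medians of 2380 and 2606 CPM and MT-ND6 of 11.3 and 13.7 CPM.

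**Figure D3:**
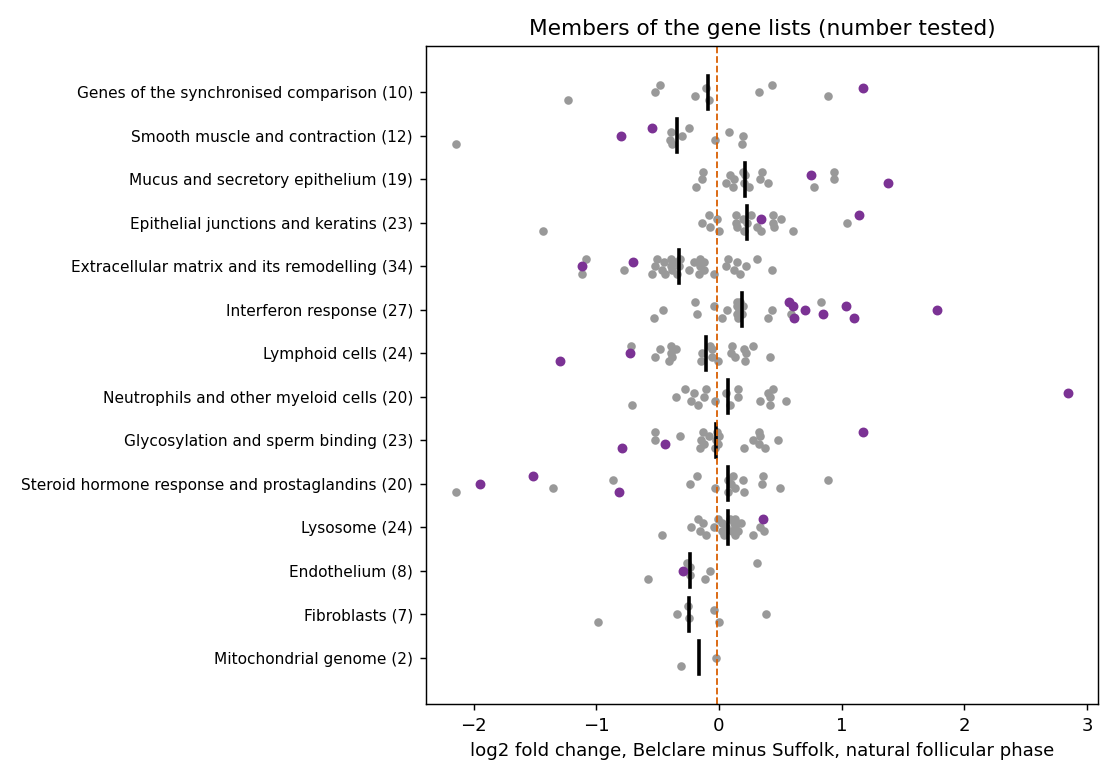
Log2 fold change, Belclare minus Suffolk, of each tested member of the 14 gene lists, with the number tested in brackets. Purple points have an unadjusted p under 0.05, black bars are list medians, and the dashed line is the median of all genes, -0.02. The interferon list has 8 purple points, all above 0, and no member of any list was a DEG.

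The third question was whether the genes that separate these breeds in a synchronised cycle also did so in the natural cycle. The study called its genes at the synchronised follicular phase with DESeq2, while edgeR gave 0 DEGs there (smallest adjusted p = 0.125). A count of 0 in edgeR therefore cannot show that a difference was lost in the natural cycle. The 10 genes that head that comparison are a list chosen by the study on other ewes of this series. Of them, 0 were DEGs here in edgeR, and 4 were higher and 6 lower in Belclare. An unadjusted p under 0.05 in edgeR was found for 1 gene, where 9.71% of all genes were at that level. That gene was ADAM7, a membrane protein of the epididymis and a member of the disintegrin and metalloprotease family, at 0.62 to 4.96 CPM in Belclare (median 2.04) and 0.31 to 2.32 CPM in Suffolk (median 0.86). Its log2 fold change was 1.17 ± 0.40 (SE, adjusted p = 0.453), against 1.51 at the synchronised follicular and 2.66 at the luteal phase. PADI2, a peptidylarginine deiminase, had medians of 15.7 and 11.2 CPM, with a log2 fold change of 0.89 ± 0.46 (SE) in the natural cycle and 0.97 and 1.603 in the synchronised phases. MICB, a stress-induced ligand of a natural killer cell receptor, had medians of 9.66 and 15.1 CPM, with a log2 fold change of -0.48 ± 0.34 (SE) against -1.23 and -1.59.

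Other genes of that list had natural values close to 0 or of wide error. ST6GAL2, a sialyltransferase, had a log2 fold change of -0.08 ± 0.42 (SE), with -1.43 and -1.40 at the synchronised follicular and luteal phases, and its sign in the natural cycle turned when single ewes were left out. CCER2 was at 4.79 and 5.07 CPM (medians, Belclare and Suffolk) in the natural cycle, a log2 fold change of -0.20 ± 0.21 (SE), and at 1.61 and 6.35 CPM at the synchronised follicular phase, a log2 fold change of -1.43. The difference between these estimates was 1.23 ± 0.37 (SE), and its adjusted p in edgeR's interaction test was 0.9996. LMAN1L, a lectin-like cargo receptor, ranged from 0.37 to 229.6 CPM in Suffolk, and its log2 fold change of -0.52 ± 0.92 (SE) became 0.85 without Suffolk ewe 5. EGFL6, CLGN and the water channel AQP9 had log2 fold changes of 0.43, 0.32 and -0.10, with standard errors of 0.47, 0.60 and 0.77. EGFL6 was at 1.04 without Suffolk ewe 5, CLGN at 1.03 without Suffolk ewe 6 and 0.07 without Belclare ewe 7, and AQP9 at -1.36 without Belclare ewe 6 and 0.47 without Suffolk ewe 2. The transporter SLC16A6 had -1.23 ± 0.59 (SE).

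A wider set of genes was taken from the 41 Belclare and Suffolk ewes of the synchronised cycle, 21 at the follicular and 20 at the luteal phase, none of which is among the 18. In a fit with a term for phase, 511 of the 14307 genes (3.57%) had an adjusted p under 0.05 between the breeds, 212 higher (1.48%) and 299 lower (2.09%) in Belclare. In the natural cycle, 438 of the 511 (85.7%) had the same direction, where 63.8% of all genes tested did. Of the 511, 120 (23.5%) had the same direction and an unadjusted p under 0.05 in the natural ewes, where 8.09% of all genes did, and 1 had the opposite direction at that level. The sizes of the 2 sets of differences are not comparable, since the 511 were chosen for their values in the synchronised ewes, which favours large values there. The median size of the log2 fold change of the 511 was 0.57 in the synchronised ewes, their median in the same direction was 0.25 in the natural ewes, and in 69 of them the natural difference was the larger, where the same medians over all 14307 genes were 0.11 and 0.07 and the natural difference was the larger in 5282. Genes move together within an ewe, so the 511 are not independent, and these shares are a description. Without Suffolk ewes 4 and 9, 397 (77.7%) had the same direction, against 61.0% of all genes, and 69 (13.5%) also had an unadjusted p under 0.05, against 6.09%. With the genes chosen in the luteal ewes alone, 325 of 437 (74.4%) had the same direction, where 61.0% of all genes did, and with the 40 genes at a p under 0.001 in the synchronised follicular ewes alone, 35 (87.5%) did, where 63.7% of all genes did.

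Of the 511 genes, 130 had a name, of which 112 were lower in Belclare. The names come from a shortened copy of the study's tables of DEGs, so named genes cannot stand for the whole set. At an unadjusted p under 0.05 and in the same direction there were 27 named genes, 3 higher and 24 lower in Belclare. The higher ones were TLDC1, ADAM7 and SOCS6, a suppressor of cytokine signalling with medians of 17.9 and 13.6 CPM. Among the lower ones were 3 developmental transcription factors, FOXF1, TBX2 and SHOX2, with log2 fold changes of -0.55, -0.31 and -0.96. Receptors and secreted signals were RET, the leptin receptor LEPR, the ligand WNT2 and THPO. LEPR was at 13.5 to 66.2 CPM in Belclare (median 22.7) and 20.9 to 122.5 CPM in Suffolk (median 39.8), a log2 fold change of -0.84 ± 0.37 (SE), and WNT2 at medians of 23.1 and 40.6 CPM. UPK3B, a uroplakin found in urothelium and mesothelium, was at 2.58 to 20.6 CPM in Belclare (median 5.22) and 1.19 to 85.4 CPM in Suffolk (median 26.1), a log2 fold change of -2.14 ± 0.71 (SE, adjusted p = 0.453). Of the Suffolk ewes, 4 were above and 3 below every Belclare ewe. MLKL, which ruptures the membrane in necroptosis, had medians of 4.76 and 7.05 CPM and a log2 fold change of -0.70 against -1.06 in the synchronised ewes. The rest were RAD51D, AKR1E2, TMEM37, ZNF77, C1QTNF6, LRRC32, CIDEA, PLA1A, CPT1C, CTSW, TMEM176B, CREB3L3, FUT4, PIWIL3 and LOXL2, with log2 fold changes between -3.88 (PLA1A) and -0.31 (ZNF77).

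RAD51D differed by a similar amount in each of the 3 states, with log2 fold changes of -0.37 in the natural cycle, -0.41 at the synchronised follicular and -0.44 at the luteal phase. Of the other named genes with the smallest p in the synchronised ewes, APCDD1, an inhibitor of Wnt signalling, had -0.41 ± 0.27 (SE) in the natural cycle against -0.93 in the 41 ewes, and TBC1D7, a subunit of the TSC complex, -0.15 ± 0.12 (SE) against -0.44. On the side higher in Belclare, CACNG6, a calcium channel subunit, had 1.10 ± 0.84 (SE), SLFN12L 0.44, LRP11 0.42, PLA2G2C 0.38, and NPC1, a cholesterol transporter of lysosomes, 0.09 ± 0.26 (SE). Of the 130 named genes, 18 had the opposite direction in the natural cycle, LMAN1L among them, and none of the 18 had an unadjusted p under 0.05 there in edgeR.

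**Figure D4:**
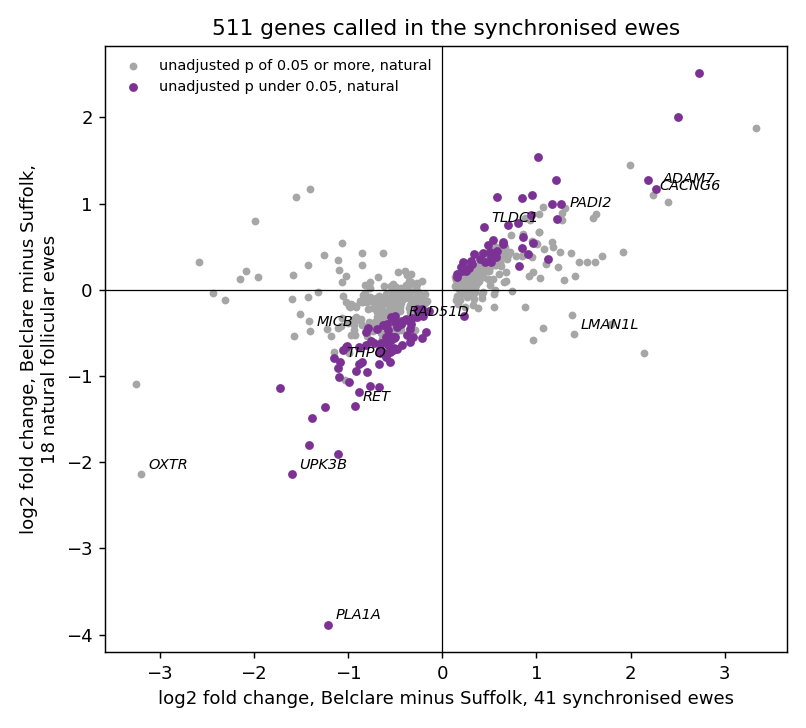
Log2 fold change, Belclare minus Suffolk, of the 511 genes called in the 41 synchronised ewes (horizontal axis) and in the 18 natural ewes (vertical axis). Of the points, 438 lie in the quadrants of equal sign, purple points have an unadjusted p under 0.05 in the natural ewes, and PLA1A has the lowest natural value at -3.88.

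The size of the breed difference was then compared between states. In separate fits over the same 14307 genes, the synchronised follicular ewes gave 0 genes (0%) with an adjusted p under 0.05 in edgeR and 873 (6.10%) with an unadjusted p under 0.05, and the luteal ewes gave 437 (3.05%) and 3562 (24.9%). The natural ewes gave 0 and 1389. The median standard errors were 0.17 in the natural, 0.14 in the synchronised follicular and 0.15 in the luteal comparison. When the difference between states was itself tested, no gene passed in edgeR. For the natural against the synchronised follicular phase, 0 of 14307 genes (0%) had an adjusted p under 0.05 and 500 an unadjusted p under 0.05 in edgeR, and DESeq2's likelihood ratio test also gave 0 and 578. For the natural against the luteal phase, edgeR gave 0 (0%) and 1550, with a smallest adjusted p of 0.098, and DESeq2's likelihood ratio test gave 42 genes with an adjusted p under 0.05. A gene called at the luteal phase and not in the natural cycle is therefore not shown by edgeR to differ between them. The median standard error of these interaction terms was 0.23.

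The levels in the other natural follicular ewes place both breeds beside Fur and NWS, each with 10 ewes in Norway, so that breed and country cannot be told apart there. The mitochondrial COX-1 was at 38.2 and 32.7 CPM in NWS ewes 4 and 10, where natural Fur ewes had 27.5 to 41.99 CPM and the other 8 NWS ewes 816 CPM or more, so NWS medians are given with and without them. TLDC1 had medians of 16.9 CPM in Fur and 15.4 in NWS (15.4 without these ewes), between those of Suffolk (13.3) and Belclare (22.9). PLEKHF1 was at 6.42 CPM in Fur and 7.81 in NWS (7.47 without these ewes), near Suffolk (7.002) and below Belclare (10.1), and the highest Fur and NWS ewes reached into the Belclare range. PLA1A was at medians of 2.45 CPM in Fur and 2.52 in NWS (2.96 without these ewes), near Belclare (2.56), and no ewe of these breeds was above 10.1 CPM. RAD51D was at 13.3 CPM in Fur and 15.5 in NWS (16.2 without these ewes), near Belclare (15.3) rather than Suffolk (19.3). ADAM7 was at 0.60 CPM in Fur and 0.63 in NWS (0.57 without these ewes), below Suffolk (0.86) and Belclare (2.04), and the ranges of all 4 breeds overlapped. THPO in Fur (1.43 CPM) and NWS (1.296, with and without these ewes) lay near Suffolk (1.36) and above Belclare (0.90).

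**Figure D5:**
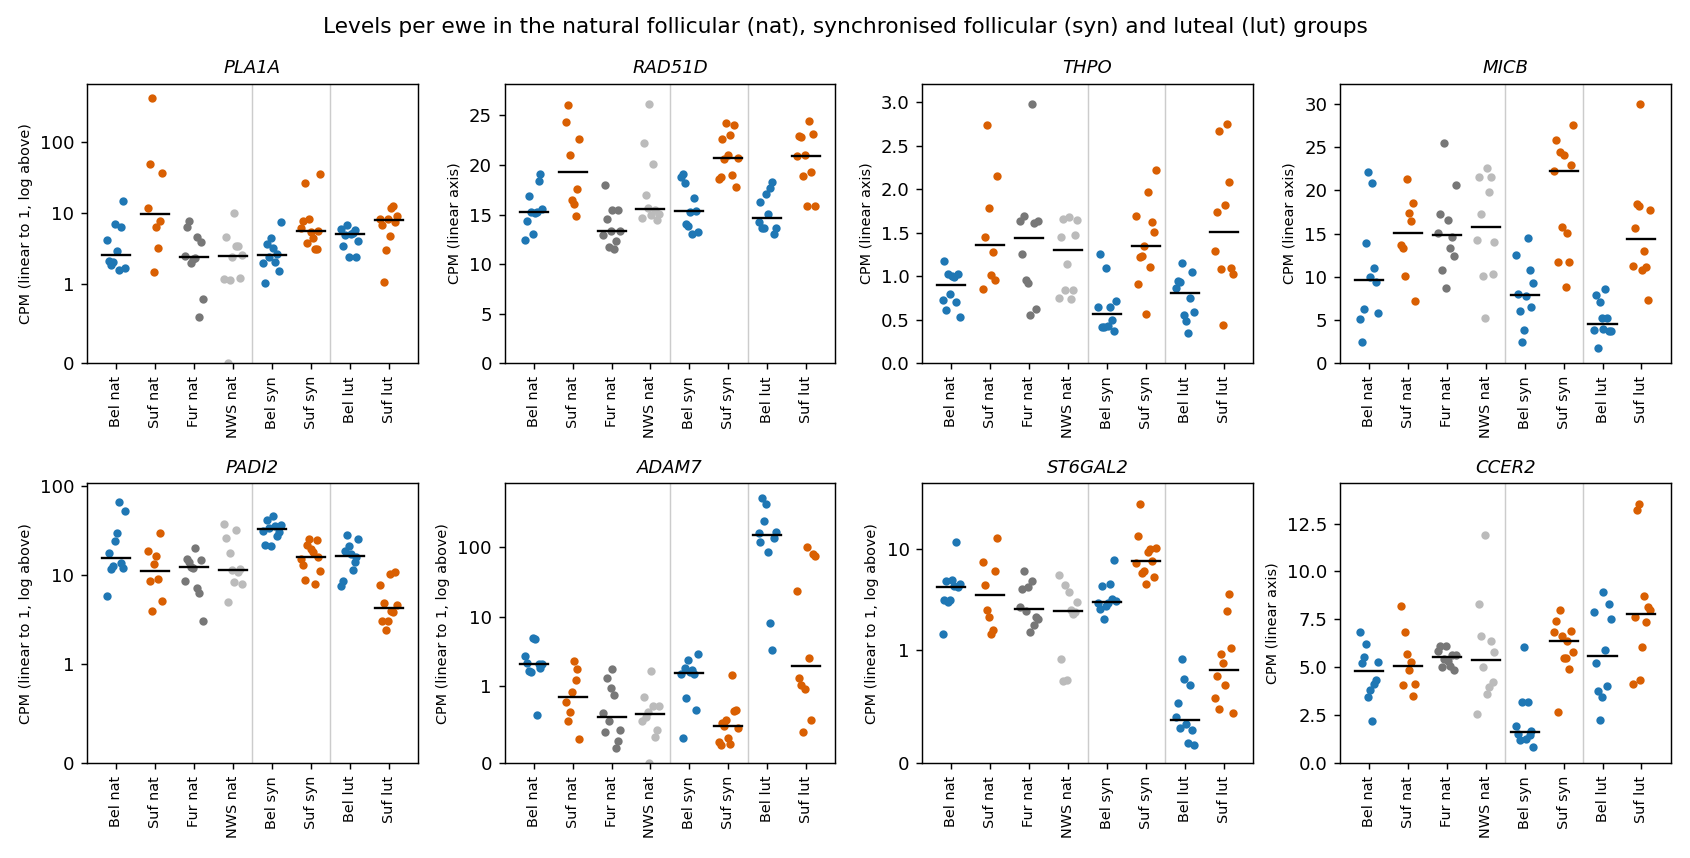
CPM per ewe of 8 genes in the 4 breeds at the natural follicular phase (nat) and in Belclare (Bel) and Suffolk (Suf) at the synchronised follicular (syn) and luteal (lut) phases. Points are ewes, lines are medians, and the axis of each panel is linear or linear to 1 CPM and logarithmic above, as labelled. RAD51D is lower in Belclare than in Suffolk by its median in all 3 states, while CCER2 has medians of 4.79 and 5.07 CPM in the natural cycle and of 1.61 and 6.35 CPM at the synchronised follicular phase.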

How the data were processed

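Raw counts of sequenced read pairs per gene were deposited by the authors, 1 column of whole numbers per ewe for 27054 Ensembl identifiers. Per the labels and the methods of the study, TruSeq stranded mRNA libraries were aligned with STAR (2.6.1b) to Oar_v3.1, and uniquely mapped pairs were counted with featureCounts (Subread 1.6.3). Whether strand was used in counting, and any batch, is not given in the sources used here. Names for 1352 identifiers came from a shortened copy of the study's tables, and 18 names have more than 1 identifier. Those tables list DEGs of Belclare, Fur or NWS against Suffolk in synchronised follicular ewes, so named genes were preselected by those comparisons. Whether any ewe of 1 breed shared a flock or day with another is also not given. The p-values treat the ewes as independent, and flock or day could not be compared with breed.

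The test of the genes that reached 1 CPM in 8 or more ewes used edgeR (4.0.16, R 4.3.3), with TMM scaling, the quasi-likelihood test and Benjamini-Hochberg adjustment, a fit over the 18 ewes with breed as its term. The study used the likelihood ratio test of DESeq2, which was run here as an alternative (DESeq2 1.42.0). CPM levels were scaled over all 114 libraries with a group, and a standard error is the log2 fold change divided by the square root of the F statistic. Variance shares and principal components used log2 CPM with a prior count of 2. Other alternatives were size factors, no filter, other filters and sets of ewes, and each ewe left out. The breeds, gene lists and named genes were chosen with earlier results of these data known. Named genes are the 10 named genes of smallest p in each direction, the 10 genes of the study's synchronised comparison, up to 4 members per list, and genes called in the synchronised ewes. No pair of libraries of a breed agreed within counting noise (lowest chi-square per degree of freedom 32.2 over 73 pairs). The scripts were tested on simulated data.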

Additional observations from a re-analysis of the deposited data

Results flagged for a closer look

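The highest or lowest ewe of a breed stood far from its nearest neighbour on the log2 scale in 18 cases among the 100 named genes in both breeds. Such a gap arises by chance in about 1 in 20 groups, a group being the ewes of 1 breed for 1 gene. Genes move together within an ewe, and many were chosen by their p. The rate is therefore no measure of how many cases to expect here. In Belclare ewe 1, UCP2 was at 534.7 CPM against 223.1 CPM in the next ewe, KRT16 at 251.0 against 42.2, CD177 at 188.0 against 15.5, ISG15 at 66.3 against 9.10 and ZBP1 at 54.6 against 13.6, all high, while HAND2 was low at 3.33 against 6.83. In Suffolk ewe 4, MSX1 was high at 284.0 CPM against 86.2, and SPTB (1.04 against 4.14), TSPAN1 (189.9 against 585.0) and KRT16 (2.64 against 13.7) were low. Single values elsewhere were low for MYLK3 in Suffolk ewe 7 (6.55 CPM), PTPN22 in Belclare ewe 7 (0.37), ANGPT2 and TWIST2 in Belclare ewe 4 (2.68 and 5.23), TWIST2 in Suffolk ewe 7 (5.88) and MT-ND6 in Suffolk ewe 5 (4.802), and high for NPC1 in Belclare ewe 6 (365.1) and TBC1D7 in Belclare ewe 8 (29.8).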

How the results depend on the processing

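The count of 0 DEGs also came from edgeR with DESeq2's size factors, the filter of the synchronised ewes, all 4 breeds in 1 fit, a replicate block, each ewe left out (0 to 0, with 1114 to 2134 genes at an unadjusted p under 0.05), and Suffolk ewes 4 and 9 left out together, the last chosen after seeing the data. DESeq2 gave 13 (Wald) and 14 (likelihood ratio), and no filter gave 1. The cause was not tested. For the interaction with the luteal phase, DESeq2's likelihood ratio test gave 40 DEGs where edgeR gave 0. The variance share ranged from 6.81% to 11.1% with single ewes left out. The share of the 511 synchronised genes with the same direction, whose alternatives were chosen after seeing the data, ranged from 80.2% to 88.1% with single ewes left out (80.2% without Suffolk 9), was 77.7% without Suffolk ewes 4 and 9, and 74.4% for genes chosen in the luteal ewes.

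Replicate numbers name different animals in the 2 breeds: the 8 same-numbered pairs had correlations of their deviations from -0.24 to 0.43, and 0 of 8 Suffolk ewes matched their own number best. The replicate block gave 0 DEGs, and reversed the log2 fold changes of ST6GAL2 (0.26), LMAN1L (1.65) and NPC1 (-0.0088).

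Of the 100 named genes, 97 to 100 kept direction and call under each other alternative. Without Suffolk ewes 4 and 9, ST6GAL2 (0.22), CLGN (-0.0303) and P4HA3 (0.0235) reversed. With single ewes left out, 12 of 1800 values reversed: log2 fold changes ran from -0.36 to 0.30 for ST6GAL2, -1.36 to 0.47 for AQP9, -0.98 to 0.85 for LMAN1L, -0.0702 to 0.0056 for COX-1 and -0.18 to 0.18 for NPC1. Counts of 3 or fewer in 1 or more ewes limit CACNG6, CD177, CLGN, MYCN, OXTR and PRSS16, and the median standard error of 0.17 limits what single genes can show with 18 ewes.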
